A study of Mus musculus with 8 samples.

Results

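Glutathione S-transferases attach glutathione, the main thiol of the cell, to reactive and toxic compounds, and several of them also reduce lipid hydroperoxides. The soluble enzymes fall into classes named by Greek letters (mu, alpha, pi, theta and omega among them), whereas the microsomal enzymes are membrane proteins of the MAPEG family, which is unrelated in fold and also makes leukotrienes and prostaglandins. Conjugates made by either kind are pumped out of the cell and trimmed to mercapturic acids, and many of these genes are known targets of the NRF2 transcription factor, which binds antioxidant response elements. The lung meets inhaled electrophiles, and the pi enzyme in particular is abundant in many lung tumours.

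The group described here holds 10 of the 53700 genes in the count table, matched by symbol: the microsomal Mgst1, Mgst2 and Mgst3, the mu class Gstm1, Gstm2 and Gstm5, the alpha class Gsta4, the pi class Gstp1, the theta class Gstt1 and the omega class Gsto1. They were picked because Mgst1 was near 0 in WT and present in FIH-KO cells, so the effect of genotype on Mgst1 is given as a description, without a test. The levels were measured by RNA-Seq in cultured Lewis lung carcinoma (LLC) cells, a mouse lung tumor line. FIH (factor inhibiting HIF, gene Hif1an) is an oxygen-dependent asparagine hydroxylase that restrains the hypoxia-inducible factors, and the comparison asks what its loss does to transcription in normoxia and in hypoxia. The 4 groups were WT cells at 21% O2, WT cells at 1% O2, FIH-KO cells at 21% O2 and FIH-KO cells at 1% O2, cultured for 16 hours, with 2 libraries each and 8 in all. All groups grew in the same serum-supplemented medium with penicillin and streptomycin, and the labels name no other treatment. FIH-KO cells were made with Cas9 and a synthetic guide against Hif1an followed by single-cell dilution, and an effect of the loss of FIH and one of the selected clone cannot be told apart. The labels do not say whether the libraries of a group came from separate cultures, and p values measure the spread between these libraries, which may be technical.

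Library totals lay between 14519731 and 18177016 counts, and 13933 genes passed the filter on low counts and were tested. Of the 10 members 9 passed, Mgst1 only through the FIH-KO libraries, and Gstt1 did not. Hif1an had 1316 and 1389 counts in WT cells at 21% O2 and 1609 and 1231 at 1% O2, against 584 and 673 in FIH-KO cells at 21% O2 and 729 and 784 at 1% O2, so the targeted transcript was lower in every FIH-KO library and still present. Levels are given as CPM, the counts scaled to a common library size with TMM factors. Of 10 lung epithelial markers, Epcam, Nkx2-1 and Sftpc had 0 counts in every library, while the keratin genes Krt8 and Krt18 had at least 1521 and 1693 counts and the mesenchymal marker Vim at least 46720. The epithelial markers summed to 226 to 352 CPM in WT and 334 to 539 CPM in FIH-KO libraries, and 5 mesenchymal markers to 4466 to 6062 and 8349 to 11099 CPM. Of the 10 epithelial markers, 6 had at most 3 counts in every library. At an adjusted p under 0.05 in edgeR, Krt8 was higher in FIH-KO cells (log2 fold change 1.02 at 21% and 1.00 at 1% O2). Krt18 and Krt19 passed at neither oxygen level. Among the mesenchymal markers, Vim and Fn1 were higher at both levels, S100a4 at 21% O2 only, and Cdh2 and Zeb1 passed at neither. Among 12 markers of leukocytes, endothelium and fibroblasts, Cd3e and Adgre1 were at 0 in every library, Ptprc reached 3 counts, Pdgfra had 111 to 427 and Dcn 9 to 83, and the summed level of all 12 ran from 19.5 to 31.2 CPM in WT and from 9.37 to 25.2 CPM in FIH-KO libraries. Pdgfra made up most of this sum in every library. It was lower in FIH-KO cells at 1% O2, with a log2 fold change of -0.87 ± 0.27 (SE, adjusted p = 0.032) by edgeR. At 21% O2 its value of -0.61 ± 0.26 (SE, adjusted p = 0.10) did not pass in the same test. The fibroblast markers Dcn, Col1a1 and Pdgfrb passed at neither oxygen level, with values of 1.22, 1.31 and -0.09 at 1% O2. Cdh5, an endothelial cadherin, had 35 and 18 counts in WT cells at 1% O2 and at most 5 in any other library. The part of these markers in the results was not tested. The RNA came from whole cultures, and more cells expressing a gene cannot be told apart from more RNA per cell.

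Mgst1 (ENSMUSG00000008540.12, GRCm39, chromosome 6, 138117314 to 138133774, plus strand) encodes a membrane enzyme of the endoplasmic reticulum and outer mitochondrial membrane that conjugates glutathione and reduces lipid hydroperoxides. It had 3 and 2 counts in WT cells at 21% O2, 0 and 1 in WT cells at 1% O2, 234 and 149 in FIH-KO cells at 21% O2, and 88 and 59 in FIH-KO cells at 1% O2. These counts chose the gene group. The WT libraries held at most 3 counts each and no FIH-KO library held fewer than 59. Pooled over both libraries, the ratio of FIH-KO to WT levels was 71.7 at 21% O2 (383 against 5 counts, 95% exact interval 30.5 to 222) and 152 at 1% O2 (147 against 1 count, 26.9 to 6053). These intervals cover counting error only and are no test, because these counts chose the group. Within FIH-KO cells, a contrast between groups in which the WT libraries enter only the scaling and the shared estimate of spread, Mgst1 fell from 11.1 ± 3.95 CPM (SD, n = 2) at 21% O2 to 4.67 ± 1.17 CPM at 1% O2, a log2 fold change of -1.25 ± 0.32 (SE, adjusted p = 0.019) in edgeR's quasi-likelihood test. The adjusted p of this fall was 0.20 without FIH-KO replicate 1 at 21% O2, where the log2 fold change was -0.82, and 0.069 without FIH-KO replicate 2 at 1% O2.

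The nearest tested neighbours of Mgst1 on chromosome 6 were all below 0 at 21% O2. The 3 tested genes on either side, Eps8, Strap, Dera, Plekha5, Aebp2 and Rpl38-ps2, had log2 fold changes in FIH-KO cells at 21% O2 between -0.75 (Strap) and -0.03 (Aebp2). Eps8, Aebp2 and Rpl38-ps2 did not pass (adjusted p = 0.24, 0.87 and 0.32, edgeR). The median of the 680 other tested genes of chromosome 6 was -0.125. No other gene of the annotation overlaps Mgst1, and none of its 50-base words occurs in another gene's transcripts.

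Promoter sequences are shown for Mgst1 and for 3 genes that behaved differently from one another, the mu class gene with the most counts in FIH-KO cells (Gstm1), the pi class gene (Gstp1) and a gene that passed in no comparison (Gsto1). Each window comes from RefSeq (GRCm38.p6), runs from 250 bases before to 50 bases after the RefSeq gene start, and was placed in GRCm39 by an exact match. Motif positions count from this RefSeq start. For each gene shown, it lies inside the gene span given in the text, which comes from GENCODE. Capitals mark matches, on either strand, to TGANNNNGC, a loose form of the antioxidant response element core, and to ACGTG or GCGTG, cores of the hypoxia response element. The sequences are written 5′ to 3′ on the strand of the gene.
Mgst1, chr6:138117275-138117574, plus strand: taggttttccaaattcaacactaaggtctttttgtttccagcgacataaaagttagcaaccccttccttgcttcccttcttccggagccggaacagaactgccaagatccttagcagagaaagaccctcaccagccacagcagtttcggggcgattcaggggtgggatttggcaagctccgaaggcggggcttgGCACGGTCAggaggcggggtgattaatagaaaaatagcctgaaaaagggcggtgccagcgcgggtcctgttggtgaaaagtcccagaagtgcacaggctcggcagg
Gstm1, chr3:107925085-107925384, minus strand: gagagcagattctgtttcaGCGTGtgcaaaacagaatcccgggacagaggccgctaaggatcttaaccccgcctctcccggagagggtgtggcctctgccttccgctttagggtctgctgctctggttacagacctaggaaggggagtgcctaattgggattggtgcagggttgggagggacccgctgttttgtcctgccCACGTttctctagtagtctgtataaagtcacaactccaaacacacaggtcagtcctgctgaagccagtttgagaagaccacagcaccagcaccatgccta
Gstp1, chr19:4087863-4088162, minus strand: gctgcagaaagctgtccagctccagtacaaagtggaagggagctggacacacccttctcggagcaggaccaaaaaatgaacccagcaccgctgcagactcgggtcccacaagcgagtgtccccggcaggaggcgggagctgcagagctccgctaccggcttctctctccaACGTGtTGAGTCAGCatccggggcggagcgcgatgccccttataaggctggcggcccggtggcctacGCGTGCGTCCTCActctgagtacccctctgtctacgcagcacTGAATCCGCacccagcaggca
Gsto1, chr19:47843162-47843461, plus strand: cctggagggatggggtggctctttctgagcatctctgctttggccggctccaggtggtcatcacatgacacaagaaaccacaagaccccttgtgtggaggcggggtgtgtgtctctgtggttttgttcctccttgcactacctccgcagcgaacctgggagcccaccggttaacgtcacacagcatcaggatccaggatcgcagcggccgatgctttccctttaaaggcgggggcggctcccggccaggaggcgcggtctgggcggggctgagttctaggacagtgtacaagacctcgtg
The Mgst1 window held TGANNNNGC once, on the minus strand at -56 to -48 from the RefSeq gene start, and neither hypoxia core. A second RefSeq start of Mgst1, further into the gene, had none of the 3 motifs in its window. The Gstm1 window shown held GCGTG at -231 to -227 and ACGTG at -50 to -46 and no TGANNNNGC. That of a second RefSeq start of Gstm1, at chr3:107925240-107925539, held GCGTG once, at -76 to -72, and neither of the other motifs. The Gstp1 window held TGANNNNGC 3 times, the first (TGAGTCAGC) at -74 to -66, together with ACGTG at -80 to -76 and GCGTG at -13 to -9, which shares a base with the second TGANNNNGC match. The Gsto1 window held none of them. Among the other windows, that of Mgst3 held GCGTG once, that of Gstm5 held 2 matches each to TGANNNNGC and GCGTG, that of Gstt1 held TGANNNNGC and ACGTG once each, and those of Mgst2 and Gstm2 held none. Of 32851 mouse promoter windows of this length, 41.3% held TGANNNNGC, 19.6% ACGTG and 32.4% GCGTG, so a match is common, and it is a description of the letters and not of binding.

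**Figure D1:**
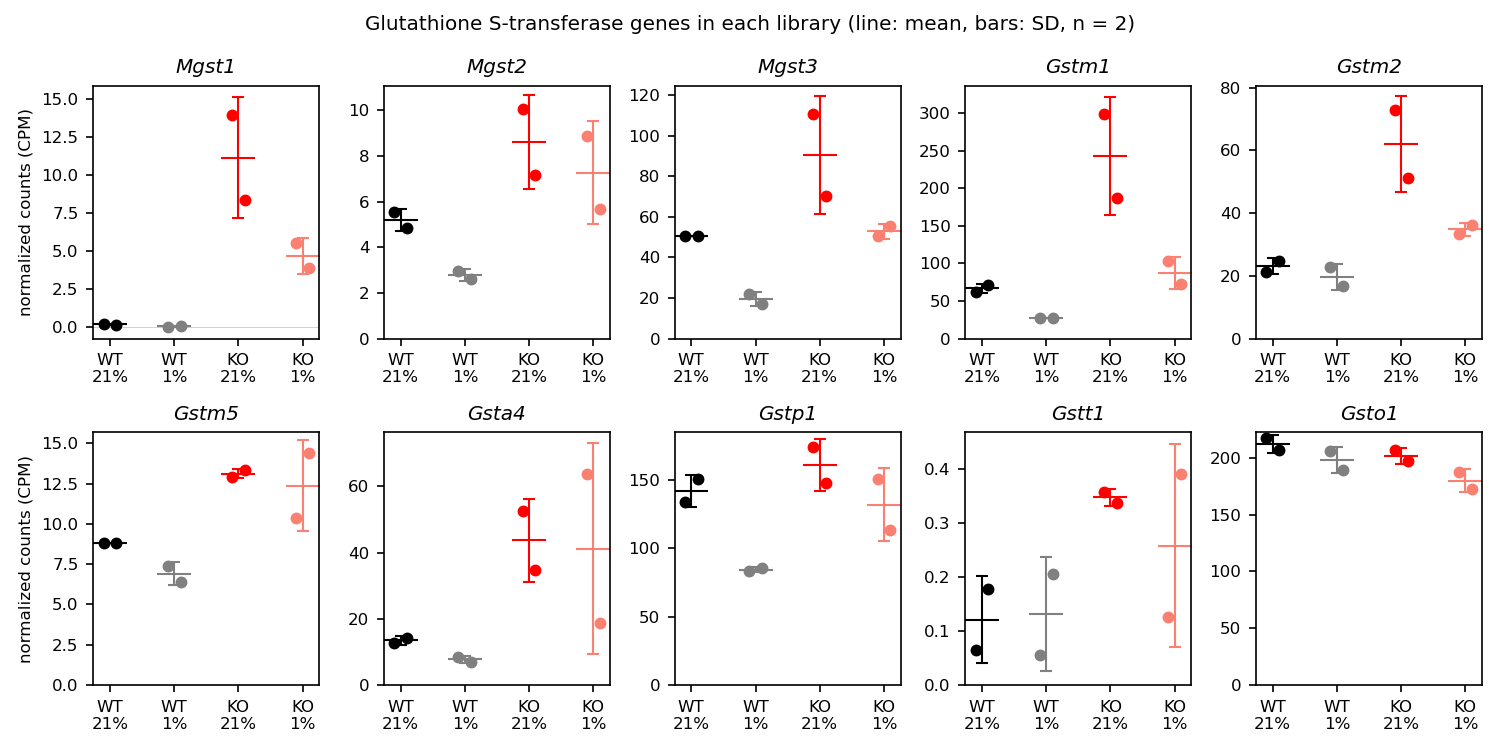
Normalised counts (CPM, y axis) of the 10 glutathione S-transferase genes in each of the 8 libraries, by genotype (WT or KO, for FIH-KO) and percent O2 (x axis). Points are libraries, lines are group means and bars the SD of 2 libraries. Mgst1 lies at 0.193 CPM or below in the 4 WT libraries and between 3.84 and 13.9 CPM in the 4 FIH-KO libraries, while Gsto1 stays between 172 and 217 CPM throughout.

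The other microsomal genes were present in WT cells and differed less between genotypes. Mgst3 (ENSMUSG00000026688.6, chromosome 1, 167196550 to 167221687), whose product has glutathione peroxidase activity, was higher in FIH-KO cells under both oxygen conditions and fell at 1% O2 in both genotypes. Mgst3 was measured at 50.4 and 50.6 CPM in WT cells at 21% O2, 22.1 and 17.1 CPM in WT cells at 1% O2, 111 and 70.0 CPM in FIH-KO cells at 21% O2, and 50.3 and 55.3 CPM in FIH-KO cells at 1% O2. The FIH-KO libraries lay above the WT libraries at the same oxygen level without overlap, and FIH-KO cells at 1% O2 overlapped WT cells at 21% O2. The log2 fold change of FIH-KO over WT was 0.84 ± 0.19 (SE, adjusted p = 0.0061) at 21% O2 and 1.43 ± 0.20 (SE, adjusted p = 0.00039) at 1% O2 by edgeR. That of 1% over 21% O2 was -1.36 ± 0.20 (SE, adjusted p = 0.00043) in WT and -0.78 ± 0.19 (SE, adjusted p = 0.016) in FIH-KO cells by the same test. Of these calls 2 were lost without FIH-KO replicate 1 at 21% O2, where the difference from WT at 21% O2 was 0.45 (adjusted p = 0.10, edgeR) and the fall in FIH-KO cells was -0.39 (adjusted p = 0.19). The call at 21% O2 was also lost without either WT library at 21% O2 (adjusted p = 0.061 and 0.052, edgeR), and the fall in FIH-KO cells without FIH-KO replicate 1 at 1% O2 (adjusted p = 0.079).

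Mgst2 (ENSMUSG00000074604.10, chromosome 3, 51567781 to 51590098), which can conjugate leukotriene precursors with glutathione, was the least abundant of the microsomal genes present in WT cells. Mgst2 had 5.53 and 4.86 CPM in WT cells at 21% O2, 2.97 and 2.59 CPM in WT cells at 1% O2, 10.1 and 7.16 CPM in FIH-KO cells at 21% O2, and 8.87 and 5.66 CPM in FIH-KO cells at 1% O2. Both FIH-KO libraries exceeded both WT libraries at each oxygen level, and the 2 FIH-KO groups overlapped each other. The genotype effect on the log2 scale was 1.38 ± 0.29 (SE, adjusted p = 0.0045) at 1% O2 by edgeR, which passed, and 0.73 ± 0.27 (SE, adjusted p = 0.064) at 21% O2, which did not. When only the 4 libraries compared were fitted, the value at 21% O2 passed (adjusted p = 0.036, edgeR). In WT cells Mgst2 fell at 1% O2, with a log2 fold change of -0.89 ± 0.30 (SE, adjusted p = 0.038) in edgeR's test, a call lost without any 1 of the 4 WT libraries (adjusted p between 0.085 and 0.16), and in FIH-KO cells the value was -0.24 ± 0.27 (SE, adjusted p = 0.59). The annotated genes Gm37261, on the same strand, and Gm65230, on the opposite one, overlap Mgst2, and the strand setting of the counting is not given in the sources used here.

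The mu class genes lie in a cluster on chromosome 3, and for all 3 members both FIH-KO libraries lay above both WT libraries at each oxygen level. The same held for 34.6% of all tested genes at 21% O2 and for 29.1% at 1% O2. Gstm1 (ENSMUSG00000058135.13, 107919380 to 107925380, minus strand), a major detoxifying enzyme of mouse liver, was higher in FIH-KO cells and lower at 1% O2. Gstm1 was counted at 62.4 and 70.7 CPM in WT cells at 21% O2, 27.3 and 27.2 CPM in WT cells at 1% O2, 298 and 188 CPM in FIH-KO cells at 21% O2, and 102 and 72.3 CPM in FIH-KO cells at 1% O2. No groups overlapped, and FIH-KO cells at 21% O2 were the highest and WT cells at 1% O2 the lowest. Gstm1 was higher in FIH-KO cells by 1.87 ± 0.21 (SE, adjusted p = 7.1e-05) on the log2 scale at 21% O2 and by 1.68 ± 0.21 (SE, adjusted p = 0.0002) at 1% O2 (edgeR). It fell at 1% O2 in WT cells, with a log2 fold change of -1.29 ± 0.21 (SE, adjusted p = 0.00086), and in FIH-KO cells, with -1.47 ± 0.20 (SE, adjusted p = 0.0006), by the same test. All 4 calls remained without each library in turn, with values from 1.47 to 2.14 for the genotype effect at 21% O2.

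Gstm2 (ENSMUSG00000040562.13, 107889004 to 107893785, minus strand) differed from Gstm1 in WT cells, where its oxygen groups overlapped. Gstm2 stood at 21.2 and 24.8 CPM in WT cells at 21% O2, 22.7 and 16.8 CPM in WT cells at 1% O2, 72.9 and 51.2 CPM in FIH-KO cells at 21% O2, and 33.4 and 36.3 CPM in FIH-KO cells at 1% O2. The FIH-KO libraries at 21% O2 were the highest, those at 1% O2 were intermediate, and the 4 WT libraries were the lowest. The log2 fold change of FIH-KO over WT was 1.43 ± 0.19 (SE, adjusted p = 0.00027) at 21% O2 and 0.81 ± 0.19 (SE, adjusted p = 0.0084) at 1% O2 (edgeR). The second of these did not pass without WT replicate 2 at 1% O2, where the log2 fold change was 0.62 (adjusted p = 0.084, edgeR). At 1% O2 Gstm2 fell in FIH-KO cells, with a log2 fold change of -0.83 ± 0.19 (SE, adjusted p = 0.011), and had a value of -0.22 ± 0.20 (SE, adjusted p = 0.43) in WT cells, both by edgeR. The fall in FIH-KO cells was -0.54 (adjusted p = 0.12) without FIH-KO replicate 1 at 21% O2 and -0.75 (adjusted p = 0.054) without FIH-KO replicate 1 at 1% O2.

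Gstm5 (ENSMUSG00000004032.11, 107803137 to 107806005, plus strand) was the least abundant of the 3 mu class genes. Gstm5 was found at 8.80 and 8.83 CPM in WT cells at 21% O2, 7.40 and 6.42 CPM in WT cells at 1% O2, 12.9 and 13.3 CPM in FIH-KO cells at 21% O2, and 10.4 and 14.4 CPM in FIH-KO cells at 1% O2. All FIH-KO libraries lay above all WT libraries. The log2 fold change of FIH-KO over WT passed at 1% O2, with 0.84 ± 0.21 (SE, adjusted p = 0.011), and missed the threshold at 21% O2, with 0.57 ± 0.20 (SE, adjusted p = 0.053), both by edgeR. The value at 21% O2 passed when only the 4 libraries compared were fitted (adjusted p = 0.025, edgeR). The call at 1% O2 was lost without FIH-KO replicate 2 or WT replicate 2 at 1% O2 (adjusted p = 0.074 in both cases). The effect of oxygen on Gstm5 did not pass in either genotype, with log2 fold changes of -0.35 in WT and -0.09 in FIH-KO cells. The antisense gene 4933431E20Rik overlaps Gstm5 and was also higher in FIH-KO cells, by 1.07 ± 0.27 (SE, adjusted p = 0.011) at 21% O2 and 1.28 ± 0.31 (SE, adjusted p = 0.0088) at 1% O2 (edgeR). Unlike Gstm5, it fell at 1% O2 in WT cells, with -1.12 ± 0.31 (SE, adjusted p = 0.016), and in FIH-KO cells, with -0.91 ± 0.27 (SE, adjusted p = 0.034), by the same test. Without the strand setting of the counting, reads of Gstm5 and its antisense partner cannot be told apart.

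**Figure D2:**
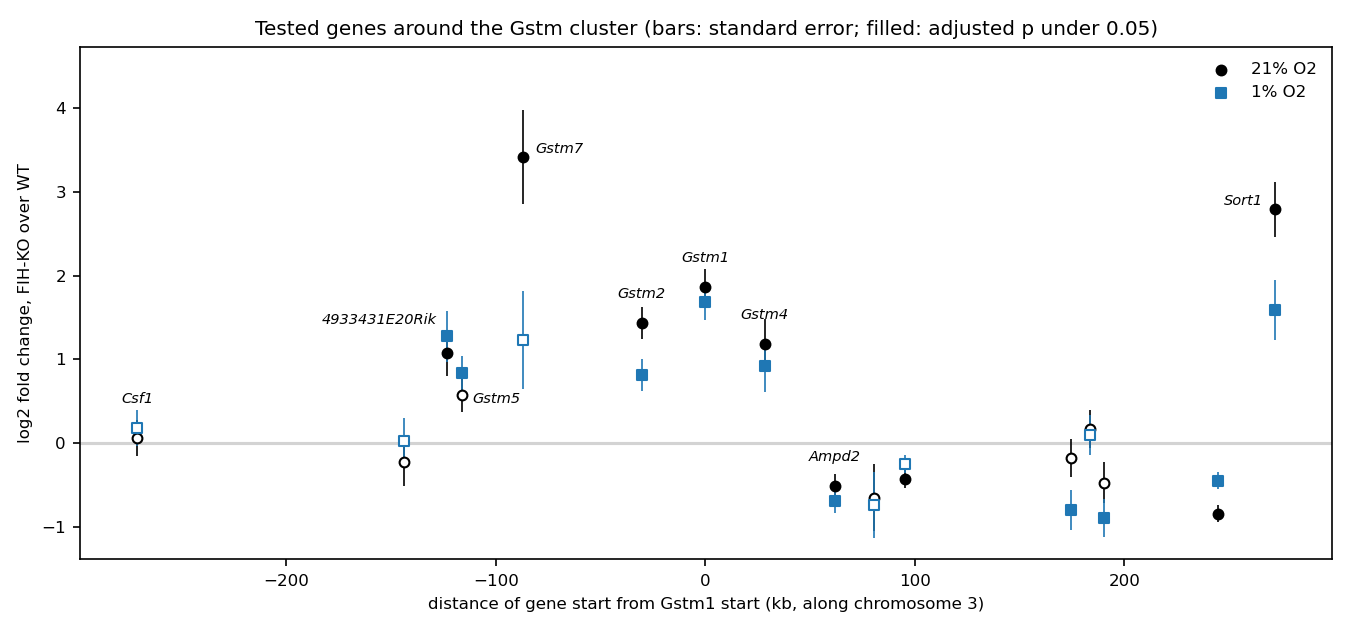
Log2 fold change of FIH-KO over WT (y axis, bars are standard errors) of every tested gene within 300 kb of the start of Gstm1 against the distance between gene starts along chromosome 3 in kb (x axis), at 21% O2 (black circles) and 1% O2 (blue squares). Filled symbols passed an adjusted p under 0.05 in edgeR, which for Gstm7 is no test because it passed the filter only through FIH-KO libraries. The Gstm genes are all above 0, Ampd2 and its next neighbours below 0, and Sort1, named after its value was seen, is at 2.79 at 21% O2.

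The mu cluster lies on a chromosome whose other genes had a median below 0. The median log2 fold change of FIH-KO over WT of the 679 other tested genes of chromosome 3 was -0.363 at 21% O2 and -0.411 at 1% O2, and 35.6% and 36.5% of them were lower in FIH-KO cells at an adjusted p under 0.05, against 4.86% and 4.57% that were higher. The 2 other tested mu class genes of the cluster were also above 0. Gstm7 had 2 and 7 counts in WT cells at 21% O2, 8 and 6 in WT cells at 1% O2, 69 and 35 in FIH-KO cells at 21% O2 and 17 and 15 in FIH-KO cells at 1% O2. No WT library reached the filter on low counts, so Gstm7 passed it only through the FIH-KO libraries, and its log2 fold changes of 3.42 at 21% and 1.23 at 1% O2 are a description. Gstm4 rose by 1.18 ± 0.30 (SE, adjusted p = 0.013) at 21% and 0.92 ± 0.32 (SE, adjusted p = 0.046) at 1% O2 in edgeR. Outside the cluster, Csf1 and Gm5075 on one side had values at 21% O2 of 0.06 and -0.23, and Ampd2 and Gnai3 on the other side fell by 0.51 and 0.43. Gnat2, between them, had a log2 fold change of -0.65 that did not pass. Gstm1 shared 9.0% of its 50-base words with other transcripts, mostly the pseudogene Gstm2-ps1 and Gstm3, and Gstm2 shared 12.4% of its words with the pseudogene Gm6665. How reads matching several genes were counted is not given in the sources used here, and the levels of Gstm1 and Gstm2 are uncertain to that extent.

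Gsta4 (ENSMUSG00000032348.7, chromosome 9, 78090056 to 78117763), the alpha class enzyme best known for conjugating hydroxynonenal from oxidised lipids, was higher in FIH-KO cells, with a wide gap between the FIH-KO libraries at 1% O2. Gsta4 was present at 12.6 and 14.3 CPM in WT cells at 21% O2, 8.52 and 7.03 CPM in WT cells at 1% O2, 52.6 and 34.8 CPM in FIH-KO cells at 21% O2, and 63.7 and 18.8 CPM in FIH-KO cells at 1% O2. Every FIH-KO library exceeded every WT library, but the 2 FIH-KO libraries at 1% O2 had 1020 and 289 counts, a ratio of 3.39 in CPM, and lay on either side of those at 21% O2. Against WT, FIH-KO cells had a log2 fold change of 1.70 ± 0.41 (SE, adjusted p = 0.0094) at 21% O2 and 2.40 ± 0.43 (SE, adjusted p = 0.0018) at 1% O2 by edgeR. The value at 1% O2 was 1.31 without FIH-KO replicate 1 at 1% O2 and 3.03 without replicate 2, and it passed in both cases (adjusted p = 0.0023 and 3.6e-06, edgeR). The call at 21% O2 was lost without FIH-KO replicate 1 at 21% O2 (adjusted p = 0.089) or either WT library at 21% O2 (adjusted p = 0.080 and 0.052, edgeR). The effect of oxygen was -0.79 ± 0.44 (SE, adjusted p = 0.2) in WT and -0.08 ± 0.39 (SE, adjusted p = 0.92) in FIH-KO cells by edgeR. Which FIH-KO library at 1% O2 was used set the direction of the second: -1.19 (adjusted p = 0.0086, edgeR) without replicate 1 and 0.54 (adjusted p = 0.099) without replicate 2. In WT cells the value passed under some other settings. It was -0.78 (adjusted p = 0.0054, edgeR) when only the 4 WT libraries were fitted and -0.80 (adjusted p = 0.00038, edgeR) with no filter beyond 1 read. Gsta1 and Gsta2, also of the alpha class, had 0 counts in all 4 WT libraries and at most 6 in any FIH-KO library, too few to be tested.

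Gstp1 (ENSMUSG00000060803.7, chromosome 19, 4085405 to 4088068, minus strand), the pi class enzyme of many tumours, ranked first of the 10 per length in WT cells at 21% O2 and FIH-KO cells at 1% O2. Gstp1 was detected at 134 and 151 CPM in WT cells at 21% O2, 83.2 and 85.6 CPM in WT cells at 1% O2, 175 and 148 CPM in FIH-KO cells at 21% O2, and 151 and 113 CPM in FIH-KO cells at 1% O2. WT cells at 1% O2 were the lowest group and did not overlap the others, while the genotypes overlapped at 21% O2. The log2 fold change of FIH-KO over WT was 0.65 ± 0.14 (SE, adjusted p = 0.0058) at 1% O2 and 0.18 ± 0.14 (SE, adjusted p = 0.38) at 21% O2 by edgeR, of which the first passed. At 1% O2 Gstp1 fell in WT cells, with -0.75 ± 0.14 (SE, adjusted p = 0.0021), and had -0.29 ± 0.14 (SE, adjusted p = 0.19) in FIH-KO cells, by the same test. Without FIH-KO replicate 1 at 1% O2 the latter was -0.48 and passed (adjusted p = 0.044, edgeR). Gstp1 shared 31.0% of its 50-base words with Gstp2, to which at most 6 reads were assigned in any library, and over that share reads of the 2 copies cannot be told apart.

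Gsto1 (ENSMUSG00000025068.9, chromosome 19, 47842686 to 47853229), an omega class enzyme that reduces disulfides and dehydroascorbate, passed in no comparison. Gsto1 was measured at 217 and 207 CPM in WT cells at 21% O2, 206 and 189.6 CPM in WT cells at 1% O2, 207 and 197 CPM in FIH-KO cells at 21% O2, and 187 and 172 CPM in FIH-KO cells at 1% O2. Its genotypes overlapped at 21% O2, and at 1% O2 both FIH-KO libraries were just below both WT libraries. The log2 fold changes of FIH-KO over WT were -0.07 ± 0.11 (SE, adjusted p = 0.65) and -0.14 ± 0.11 (SE, adjusted p = 0.37), and those of 1% over 21% O2 were -0.10 ± 0.11 (SE, adjusted p = 0.49) in WT and -0.17 ± 0.11 (SE, adjusted p = 0.31) in FIH-KO cells, none of which passed in edgeR. The 474 other tested genes of chromosome 19, where Gstp1 and Gsto1 lie, had a median log2 fold change of FIH-KO over WT of -0.382 at 21% O2 and -0.454 at 1% O2. Cfap43, Gm30021 and Gm59209 overlap Gsto1 on the opposite strand, as Gm71125 does Mgst3 and Gm66775 does Gstm1, and the limit given for Gstm5 holds for them too.

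Gstt1 (ENSMUSG00000001663.11, chromosome 10, 75618994 to 75634445, minus strand), a theta class enzyme that acts on small halogenated compounds, was barely detected. It had 1 and 3 counts in WT cells at 21% O2, 1 and 3 in WT cells at 1% O2, 6 and 6 in FIH-KO cells at 21% O2, and 2 and 6 in FIH-KO cells at 1% O2. These counts did not pass the filter and no test was made. The ratio of FIH-KO to WT was 2.81 at 21% O2 (12 against 4 counts, 95% exact interval 0.851 to 11.9) and 2.07 at 1% O2 (8 against 4 counts, 0.555 to 9.40), and both intervals include no difference.

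**Figure D3:**
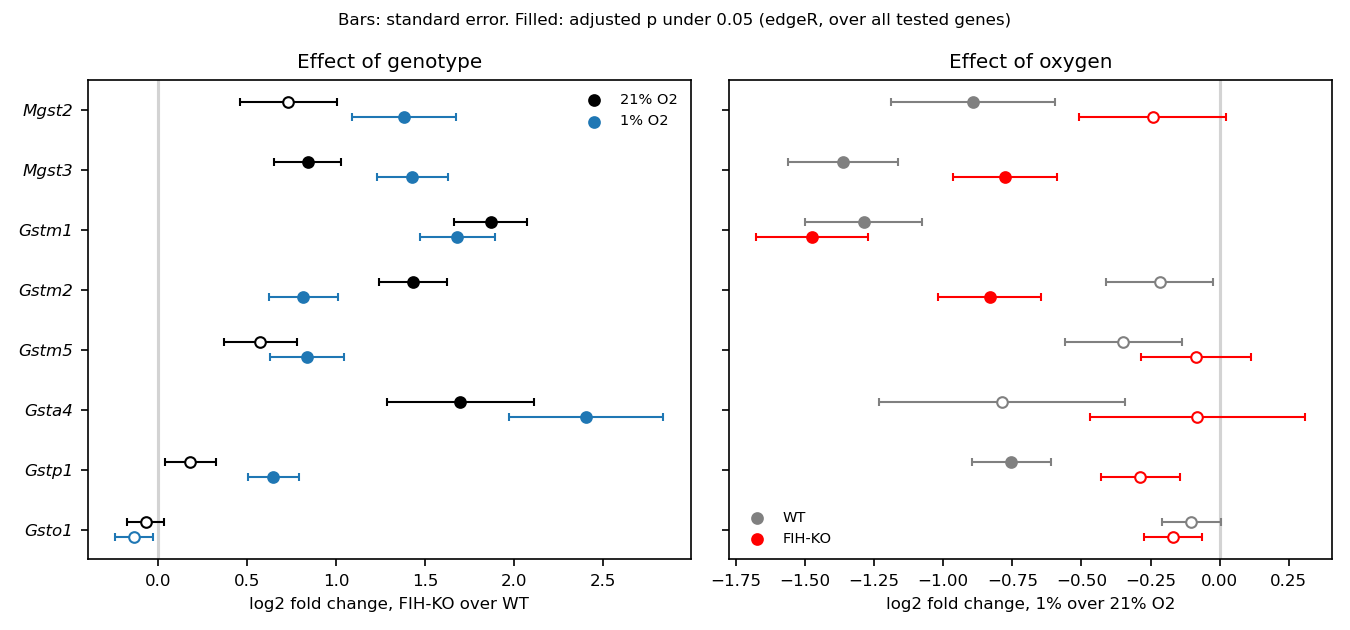
Log2 fold changes (x axes, bars are standard errors) of the 8 members tested in every comparison, with FIH-KO over WT at 21% and 1% O2 on the left and 1% over 21% O2 in WT and FIH-KO cells on the right. Filled circles passed an adjusted p under 0.05 in edgeR. On the left, 7 of the 8 genes lie above 0 at both oxygen levels and Gsto1 just below, and on the right, no gene lies above 0.

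Counted over the 8 tested members other than Mgst1, 4 were higher in FIH-KO cells at 21% O2 (Mgst3, Gstm1, Gstm2 and Gsta4) and 0 lower, and their median log2 fold change was 0.784 against -0.003 over all tested genes. Of all tested genes, 28.2% passed the same threshold, 15.2% higher and 13% lower. The count at 21% O2 was 2 (Gstm1 and Gstm2) without FIH-KO replicate 1, WT replicate 1 or WT replicate 2 at 21% O2. At 1% O2, 7 of the 8 were higher, all but Gsto1, with a median of 1.11 against -0.03 over all tested genes, of which 28% passed, 14.1% higher and 13.9% lower. The group was chosen on this contrast through Mgst1, and these counts describe it.

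Every member that passed for oxygen was lower at 1% O2. In WT cells 4 of the 8 fell at 1% O2 (Mgst2, Mgst3, Gstm1 and Gstp1) and 0 rose, with a median log2 fold change of -0.77 against -0.001 over all tested genes, of which 32.4% passed, 15.5% falling and 16.9% rising. In FIH-KO cells, where Mgst1 could be tested too, 4 of 9 fell (Mgst1, Mgst3, Gstm1 and Gstm2) and 0 rose, with a median of -0.29 against -0.03. There 16.8% of all tested genes passed, 8% falling and 8.84% rising. Without FIH-KO replicate 1 at 21% O2, only Gstm1 of these 9 passed in FIH-KO cells. This library was above replicate 2 of its group in 9 of the 10 genes, by up to 1.67 times in CPM. The oxygen and genotype comparisons share libraries and are not independent of each other.

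Whether oxygen changed the genotype effect was tested as an interaction. Of the 8 members, 0 passed in edgeR, 2 had an unadjusted p under 0.05, and the differences in log2 fold change ran from -0.61 (Gstm2) to 0.71 (Gsta4). Over all 13933 genes 0 (0%) passed as well, while 925 had an unadjusted p under 0.05 and DESeq2 called 40. Gstm2 had its larger genotype effect at 21% O2 (1.43 against 0.81) and Gstp1 at 1% O2 (0.18 against 0.65). They were the 2 members with an unadjusted p under 0.05 (0.041 and 0.039, edgeR). Neither difference passed after adjustment over all tested genes (adjusted p = 0.72 and 0.71).

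Compared per kilobase of exon, the make-up of the group differed between genotypes. In WT cells at 21% O2, Gstp1 was at 87.1 ± 7.21 CPM per kb (SD, n = 2) and took 40.9% of the summed level of the 10 genes, followed by Gsto1 with 59.9 ± 2.13 and Gstm1 with 26.5 ± 2.33 (12.4%). In FIH-KO cells at 21% O2, Gstm1 reached 96.6 ± 31.1 CPM per kb (28.1%), within the spread of Gstp1 at 98.7 ± 11.6, and Gsto1 followed at 57.1 ± 2.0. In WT cells at 1% O2, the libraries of Gsto1 (55.8 ± 3.22) lay above those of Gstp1 (51.7 ± 1.03), although their SDs met. Gstm1 and Gstm2 (10.8 ± 0.0158 and 10.3 ± 2.19) could not be ranked there. In FIH-KO cells at 1% O2 the order was Gstp1 (80.9 ± 16.4), Gsto1 (50.8 ± 2.91) and Gstm1 (34.8 ± 8.49), followed by Gstm2 (18.2 ± 1.05) and Mgst3 (14.8 ± 0.997), whose libraries did not overlap, while Gsta4 (15.0 ± 11.6) could not be ranked against either. Mgst1 remained among the low genes even where it was present, at 5.48 ± 1.94 CPM per kb in FIH-KO cells at 21% O2 and 2.30 ± 0.576 at 1% O2, where Mgst2 was at 1.81 ± 0.565. The sum over the 10 genes was 206.4 and 219.3 CPM per kb in WT cells at 21% O2, 147.6 and 138.7 at 1% O2, 391.8 and 296.2 in FIH-KO cells at 21% O2, and 253.9 and 202.7 at 1% O2. Both FIH-KO libraries thus lay above both WT libraries at the same oxygen level.

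**Figure D4:**
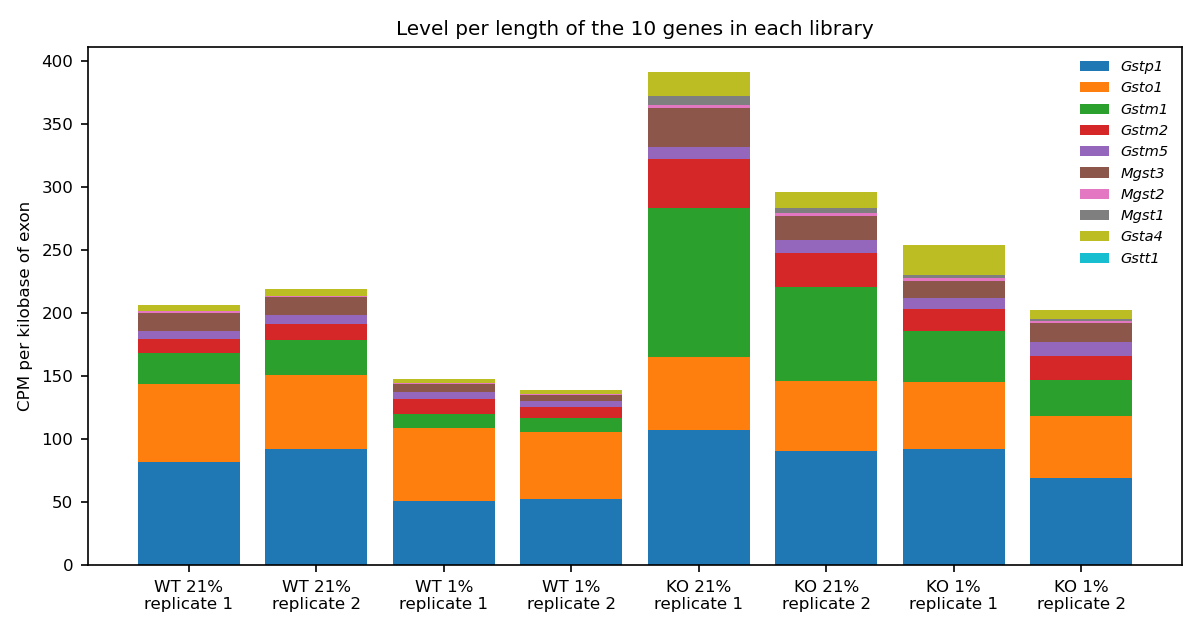
Stacked bars of the level of each of the 10 genes in CPM per kilobase of exon (y axis) in each of the 8 libraries (x axis). The green part, Gstm1, is the one that grows most from WT to FIH-KO cells at 21% O2, from a mean of 26.5 to 96.6 CPM per kb, while the orange part, Gsto1, goes from 59.9 to 57.1.

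The rest of the glutathione pathway was described from 3 lists. Of 24 other transferase and MAPEG genes in the table, 10 were tested, of which 4 rose and 1 fell in FIH-KO cells at 21% O2 and 2 rose and 1 fell at 1% O2, with medians of 0.53 and 0.57 against -0.003 and -0.03 over all tested genes. Of all tested genes 15.2% were higher and 13% lower at 21% O2, and 14.1% and 13.9% at 1% O2. Gstm7 and Ltc4s, both counted as higher at 21% O2 and Ltc4s also at 1% O2, passed the filter only through the FIH-KO libraries and had to be higher there. Both medians include them and are a description. The other genes counted as higher were Gstm4 and Gstz1 at 21% O2 and Gstm4 at 1% O2. At 1% against 21% O2, 1 rose and 0 fell in WT cells, where 16.9% of all tested genes rose and 15.5% fell, and 0 rose and 2 fell in FIH-KO cells, where 8.84% rose and 8% fell. Ltc4s, the leukotriene synthase of the MAPEG family, had 2 and 10 counts in WT cells at 21% O2, 8 and 3 in WT cells at 1% O2, 115 and 72 in FIH-KO cells at 21% O2 and 39 and 17 in FIH-KO cells at 1% O2. Its log2 fold changes of FIH-KO over WT, 3.86 at 21% and 2.38 at 1% O2, are a description for that reason. Within FIH-KO cells it fell at 1% O2, with -1.61 ± 0.46 (SE, adjusted p = 0.033) (edgeR). Gstcd, on chromosome 3 like the mu cluster, fell in FIH-KO cells, with log2 fold changes of -0.95 ± 0.13 (SE, adjusted p = 0.00029) at 21% O2 and -0.94 ± 0.13 (SE, adjusted p = 0.00032) at 1% O2 in the same test. Gstz1, which isomerises maleylacetoacetate in tyrosine breakdown, rose at 1% O2 in WT cells by 0.46 ± 0.15 (SE, adjusted p = 0.037) and in FIH-KO cells at 21% O2 by 0.46 ± 0.15 (SE, adjusted p = 0.041) (edgeR).

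Genes that make and recycle glutathione were split in direction. All 17 were tested, and 4 rose and 1 fell in FIH-KO cells at 21% O2 and 4 rose and 2 fell at 1% O2, with medians of 0.12 and -0.22. That is 4 of 17 higher where 15.2% of all tested genes were higher at 21% O2 and 14.1% at 1% O2, and 1 and 2 lower where 13% and 13.9% were. At 1% O2, 5 rose and 5 fell in WT cells, against 16.9% and 15.5% of all tested genes, and 4 rose and 6 fell in FIH-KO cells, against 8.84% and 8%. Slc7a11, the cystine importer that limits glutathione synthesis, and its partner Slc3a2 were among those that rose at 1% O2. Slc3a2 was also lower in FIH-KO than in WT cells at 1% O2, with a log2 fold change of -0.93 ± 0.18 (SE, adjusted p = 0.0026) by edgeR. Slc7a11 had 17.5 and 24.3 CPM in WT cells at 21% O2, 154 and 128 CPM in WT cells at 1% O2, 28.4 and 21.9 CPM in FIH-KO cells at 21% O2, and 161 and 66.0 CPM in FIH-KO cells at 1% O2. The log2 fold change of 1% over 21% O2 was 2.75 ± 0.33 (SE, adjusted p = 0.00012) in WT and 2.18 ± 0.32 (SE, adjusted p = 0.00096) in FIH-KO cells for Slc7a11 and 1.48 ± 0.18 (SE, adjusted p = 0.00014) and 0.73 ± 0.18 (SE, adjusted p = 0.017) for Slc3a2 (edgeR). Chac1, which degrades glutathione, rose with them, by 3.23 ± 0.31 (SE, adjusted p = 2.8e-05) in WT and 2.27 ± 0.30 (SE, adjusted p = 0.00048) in FIH-KO cells in the same test. These 3 genes were named for the size of their changes, and their list also held 5 genes that fell in WT and 6 that fell in FIH-KO cells. Glrx, a glutaredoxin, rose in FIH-KO cells by 0.48 ± 0.14 (SE, adjusted p = 0.025) at 21% and 1.03 ± 0.15 (SE, adjusted p = 0.00049) at 1% O2 and fell at 1% O2 in WT cells, with -0.88 ± 0.15 (SE, adjusted p = 0.001) (edgeR). Ggct, a glutamyl cyclotransferase, fell at 1% O2 in FIH-KO cells, with -1.35 ± 0.35 (SE, adjusted p = 0.021) in the same test.

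Of the export and mercapturic acid genes, 14 were tested, and 4 rose and 0 fell in FIH-KO cells at 21% O2 and 3 rose and 0 fell at 1% O2, with medians of 0.23 and 0.20. Over all tested genes the shares were 15.2% higher and 13% lower at 21% O2 and 14.1% and 13.9% at 1% O2. One of these genes, Ggt1, passed the filter only through the FIH-KO libraries and is counted at both oxygen levels and in both medians. At 1% against 21% O2, 2 rose and 2 fell in WT cells, against 16.9% and 15.5% of all tested genes, and 0 rose and 2 fell in FIH-KO cells, against 8.84% and 8%. Ggt1, the surface enzyme that takes the glutamyl group off glutathione and its conjugates, had 5 and 4 counts in WT cells at 21% O2, 9 and 8 in WT cells at 1% O2, 189 and 77 in FIH-KO cells at 21% O2 and 74 and 34 in FIH-KO cells at 1% O2. Its log2 fold change of FIH-KO over WT was 4.77 at 21% O2 and 2.69 at 1% O2, given as a description without a test. The pump genes Abcc5 and Abcc1 rose in FIH-KO cells at 21% O2 by 1.07 ± 0.13 (SE, adjusted p = 0.00014) and 0.80 ± 0.24 (SE, adjusted p = 0.025), and Abcc1 rose at 1% O2 in WT cells by 0.91 ± 0.24 (SE, adjusted p = 0.012), by edgeR. Acy1, an aminoacylase that hydrolyses mercapturic acids, fell at 1% O2, with log2 fold changes of -1.39 ± 0.16 (SE, adjusted p = 0.0001) in WT and -0.96 ± 0.16 (SE, adjusted p = 0.0019) in FIH-KO cells (edgeR). The related Acy3 fell at 1% O2 in FIH-KO cells, with -1.79 ± 0.44 (SE, adjusted p = 0.017) in the same test.

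**Figure D5:**
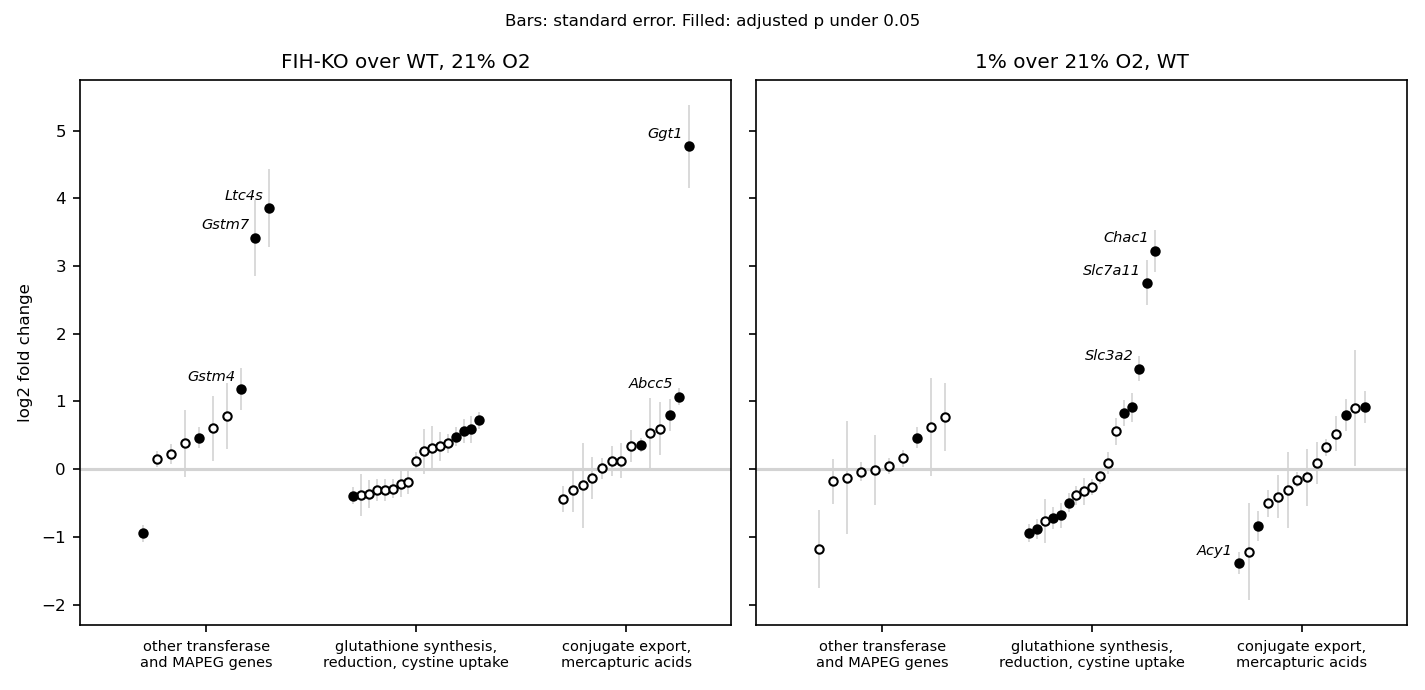
Log2 fold changes (y axis, bars are standard errors) of the tested genes of 3 lists, other transferase and MAPEG genes, glutathione synthesis genes and conjugate export genes (x axis), for FIH-KO over WT at 21% O2 on the left and for 1% over 21% O2 in WT cells on the right. Filled circles passed an adjusted p under 0.05 in edgeR, and those beyond 1 in size are named. Ltc4s, Gstm7 and Ggt1, which passed the filter only through FIH-KO libraries, lie above 3 on the left, and Chac1 and Slc7a11 above 2.5 on the right.

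The genes whose pattern was most like that of Mgst1, by Pearson correlation of log2(CPM + 1) over the 8 libraries, were Fbxo32 (r = 0.995), a muscle atrophy ubiquitin ligase subunit, Pltp (0.994), a phospholipid transfer protein, Akr1c14 (0.993), an aldo-keto reductase, Nek8 (0.992), a kinase of cilia, and Nthl1 (0.992), a DNA glycosylase. Akr1c14 had 1 and 1 counts in WT cells at 21% O2, 0 and 0 at 1% O2, 56 and 54 in FIH-KO cells at 21% O2 and 25 and 25 at 1% O2, and so was also nearly absent from WT cells. The 8 libraries form 4 groups, and 842 of 13932 genes had a correlation above 0.9 with Mgst1.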

How the data were processed

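RNA from WT and FIH-KO LLC cells at 21% or 1% O2 was sequenced from stranded mRNA libraries. STAR alignment to GRCm39 and HTSeq counting were done by the authors, and the deposited file holds unnormalized counts for 53700 genes. The annotation release, the strand setting and the handling of reads that match several genes are not given in the sources used here. Labels also name GRCm38 among the builds.

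Groups came from the sample labels. All tests used edgeR 4.0.16 under R 4.3.3 (filterByExpr, TMM, one quasi-likelihood model with a mean per group over all 8 libraries, Benjamini-Hochberg adjustment over 13933 genes, threshold 0.05). The common biological coefficient of variation was 11.7%. Fold changes are on the log2 scale, and SE is the fold change divided by the root of the F statistic. Ratios of genes with at most 3 counts per WT library were given with exact 95% Poisson intervals. The study's methods name DESeq2, which was run as an alternative (version 1.42.0). Other alternatives were RLE or upper-quartile normalization, no filter beyond 1 read, a minimum of 10 counts in each library, a fit of only the 4 libraries compared, the replicate number as a block, and each library left out. The edgeR steps were tested on simulated data.

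Positions and exon lengths came from GENCODE M39 for GRCm39, in which 52610 gene identifiers (97.97%) were found. Promoters came from RefSeq, which had windows for 9 of the 10 genes. Python 3.11.15, pandas 2.3.3 and matplotlib 3.10.9 were used.

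The members and the gene lists were chosen with earlier results of these data known. The genes named were the members, Hif1an, the markers, up to 5 called genes of each list with the largest fold change, 3 tested neighbours on each side, and the 5 genes most correlated with Mgst1.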

Additional observations from a re-analysis of the deposited data

How the results depend on the processing

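Of 634 member values recomputed under the alternatives, 586 kept their direction and side of the threshold, 19 no longer passed (all with a library left out), 16 newly passed, 2 moved without a test and 11 changed sign, none of which had passed. With 1 library left in a group, that library was assumed to vary like the other groups. Over the 8 fits that left out a library, the members called ran from 2 to 6 for FIH-KO against WT at 21% O2, 5 to 7 at 1% O2, 3 to 5 for oxygen in WT, 1 to 4 for oxygen in FIH-KO cells and 0 to 0 for the interaction. Over all genes they ran from 1735 to 4672, 2170 to 3887, 2124 to 5270, 1097 to 2604 and 0 to 39. For oxygen in FIH-KO cells, the fit of only the 4 libraries compared called 1289 genes against 2345. For the interaction, against 0 genes, 143 were called with no filter beyond 1 read, 40 by DESeq2 and 5 with the replicate block. The cause of these changes was not tested.

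The values that changed sign when a library was left out were, for oxygen in FIH-KO cells, Gsta4 (range -1.19 to 0.54, with 0.54 without KOHYP replicate 2 and 0.26 without KONOR replicate 1), Gstm5 (-0.34 to 0.16, without KOHYP replicate 1) and Mgst2 (-0.58 to 0.039, with 0.039 without KOHYP replicate 2 or KONOR replicate 1). For the interaction they were Gsta4 (-0.36, without KOHYP replicate 1, to 1.33), Gstm1 (-0.42 to 0.24, with 0.046 without KOHYP replicate 2 and 0.24 without KONOR replicate 1) and Gsto1 (-0.12 to 0.053, with 0.028 without KONOR replicate 1, 0.053 without WTHYP replicate 1 and 0.029 without WTNOR replicate 2). Here KO and WT are followed by HYP for 1% and NOR for 21% O2. The fitted Mgst1 difference at 1% O2, 6.93, was 5.98 without WTHYP replicate 1 and 9.28 without WTHYP replicate 2, since 1 read separates these libraries.

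Same-numbered libraries deviated together with correlations from -0.010 to 0.193, the highest between the WT and FIH-KO groups at 1% O2. Whether they share more than a number was not tested. With the replicate block, 42 of 43 member values kept their call, and Mgst2 at 21% O2 passed (0.71, adjusted p = 0.036, edgeR). Few counts were available for Mgst1 in WT cells and for Gstt1 in all groups.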
